A study of Mus musculus with 3 samples.

Results

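Tangentially migrating interneurons read guidance and growth signals through a small set of receptors, and the 10 genes described here are chemokine, neuregulin, HGF, GDNF and neurotrophin ligands and receptors of that kind: *Cxcl12*, *Cxcr4*, *Ackr3*, *Nrg1*, *Nrg3*, *Erbb4*, *Hgf*, *Met*, *Gfra1* and *Ntrk2*. They were chosen by name, and every mouse probe on the array that was designed on a RefSeq transcript of one of them was taken, which gave 13 probes for the 10 genes out of 20145 genes that could be named. Of the 10 genes, 8 had 1 probe, *Cxcl12* had 2 and *Ntrk2* had 3.

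RNA was measured on 3 one-color Agilent arrays, 1 for each of 3 populations purified by FACS. MGE-GFP+ cells came fresh from the medial ganglionic eminence (MGE) of E12.5 CD1 embryos, labeled female, that carried an Lhx6-GFP BAC transgene. ES-GFP+ and ES-GFP- cells were the GFP-positive and GFP-negative fractions of J14 cells, a male 129S4/SvJae ES cell line with the Lhx6-GFP BAC and, per the labels, a virally delivered 692-mCherry enhancer reporter, after 12 days of differentiation toward MGE with 100 ng/ml Dkk-1 (a Wnt inhibitor) and 6 nM SAG (a Smoothened agonist), with 1920 aggregates of 20 plates collected. All 3 populations thus carried the same kind of reporter, which reports the activity of *Lhx6* regulatory DNA in the transgene, and both ES fractions came from 1 line. Strain, sex and source differ together between the embryonic and the ES cells, so they cannot be told apart in any comparison with MGE-GFP+ cells.

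*Cxcl12* is a secreted chemokine that signals through *Cxcr4* and is bound and cleared by the atypical receptor *Ackr3*, and migrating interneurons of the MGE use both receptors to stay within their streams. *Nrg1* and *Nrg3* are EGF-like ligands made along the route and in the cortex, and *Erbb4* is their receptor on interneurons. *Hgf* acts through *Met*, GDNF through *Gfra1* together with *Ret* or *Ncam1*, and BDNF and NT-4 through TrkB, the product of *Ntrk2*, and each has been described as a motogen or guidance cue for these cells.

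Levels are given as scaled intensity, the background-subtracted brightness of a probe after the 75th percentiles of the 3 arrays were set equal, and are compared between arrays within a probe only. With 1 array per population there was no replicate, no SD between samples and no test. The technical error that could be measured was the spread of repeat spots of 1 probe on an array, whose SD was 0.14 on the log2 scale on each array, so that 2 SDs of a difference between arrays came to 1.32-fold for single spots. A mean over repeat spots has a smaller error. The ES-GFP+ array had a brighter dim end than the others: of 106 adenovirus E1A and ERCC control probes, which match no mouse transcript, 86 were well above background on it, against 34 on each of the ES-GFP- and MGE-GFP+ arrays. The 95th percentile of these control probes lay at a scaled intensity of 359.6 on the ES-GFP+, 176 on the ES-GFP- and 188 on the MGE-GFP+ array, and a probe at or under it is called within the control range. The sorted populations were checked against defining markers: all 9 genes of a list that marks MGE-derived interneurons (*Lhx6*, *Lhx8*, *Nkx2-1*, *Sox6*, *Gad1*, *Dlx1*, *Dlx2*, *Dlx5* and *Sst*) were above the control range on all 3 arrays and higher in ES-GFP+ and in MGE-GFP+ than in ES-GFP- cells.

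*Cxcr4*, *Erbb4*, *Gfra1* and *Ntrk2*, all receptors, were above the control range on all 3 arrays with at least 1 probe. *Nrg3* was above it in MGE-GFP+ cells only. *Cxcl12*, *Ackr3*, *Nrg1*, *Met* and *Hgf* were within the control range on every array, so their differences below are differences between signals no brighter than those of probes without a mouse target.

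**Figure D1:**
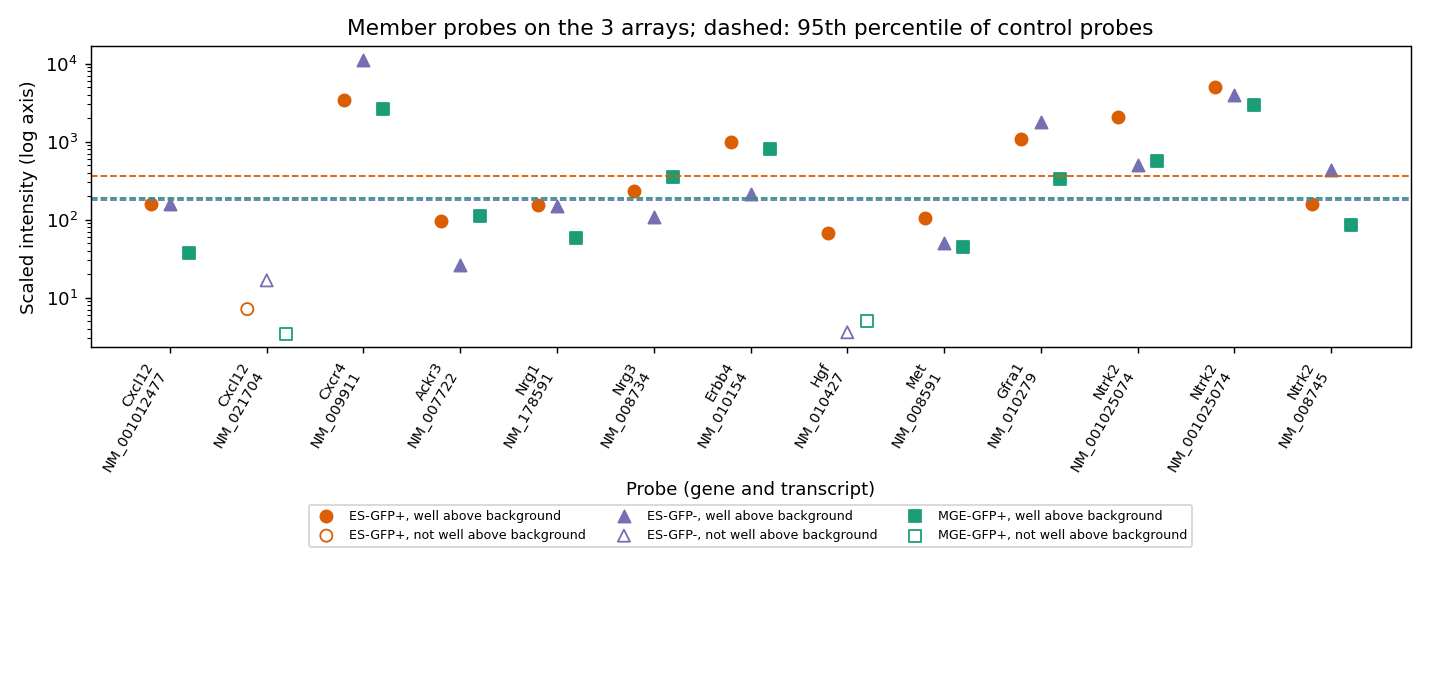
Scaled intensity (log axis) of each of the 13 probes on the ES-GFP+ (circles), ES-GFP- (triangles) and MGE-GFP+ (squares) arrays; open symbols were not well above background, and the dashed line of each color is the 95th percentile of the control probes on that array. *Cxcr4* is brightest in ES-GFP- cells and *Erbb4* is dimmest there, while the symbols of *Cxcl12*, *Ackr3*, *Nrg1*, *Hgf* and *Met* lie below their own array's line.

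Between the ES fractions, 5 of the 10 genes were at least 2-fold higher in ES-GFP+ cells (*Erbb4*, *Ackr3*, *Nrg3*, *Met* and, as a bound, *Hgf*) and 1 was at least 2-fold lower (*Cxcr4*). Over all 18655 genes with a value, 24.0% were at least 2-fold higher and 6.4% at least 2-fold lower. The median log2 difference was 0.69 over the 10 genes and 0.27 over all genes. Where only genes above the control range on at least 1 of the arrays are taken, which leaves *Cxcr4*, *Erbb4*, *Gfra1* and *Ntrk2*, 1 of the 4 was higher and 1 lower, and over all 11769 such genes the shares were 6.88% and 8.78%.

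Between the GFP+ populations, 0 of the 10 genes were at least 2-fold higher in MGE-GFP+ than in ES-GFP+ cells and 6 were at least 2-fold lower (*Cxcl12*, *Nrg1*, *Hgf*, *Met*, *Gfra1* and *Ntrk2*), where all genes gave 5.48% and 32.2%. *Ntrk2* is called on the mean of its 3 probes, and with the brightest probe of each gene 5 were lower. Of the 5 genes above the control range on at least 1 of the arrays, 0 were higher and 2 lower, and over all 11038 such genes the shares were 8.36% and 10.5%. The split over the 10 genes rests on the scaling: with the 50th percentile set equal in place of the 75th, 1 gene was higher and 2 were lower, and after quantile normalization 2 were higher and 1 lower. The shares over all genes moved too, to 26.0% higher and 17.1% lower at the 50th percentile and to 14.6% and 13.7% after quantile normalization. Against ES-GFP- cells, 9 genes had a value, of which 3 were at least 2-fold higher in MGE-GFP+ cells (*Ackr3*, *Erbb4* and *Nrg3*) and 4 at least 2-fold lower (*Cxcl12*, *Cxcr4*, *Nrg1* and *Gfra1*). The shares over all genes were 9.9% and 17.2%. Of the 5 genes above the control range on at least 1 of these 2 arrays, 2 were higher and 2 lower, where all 12018 such genes gave 11.6% and 15.5%. The comparisons share arrays pairwise, so they are not independent of each other.

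**Figure D2:**
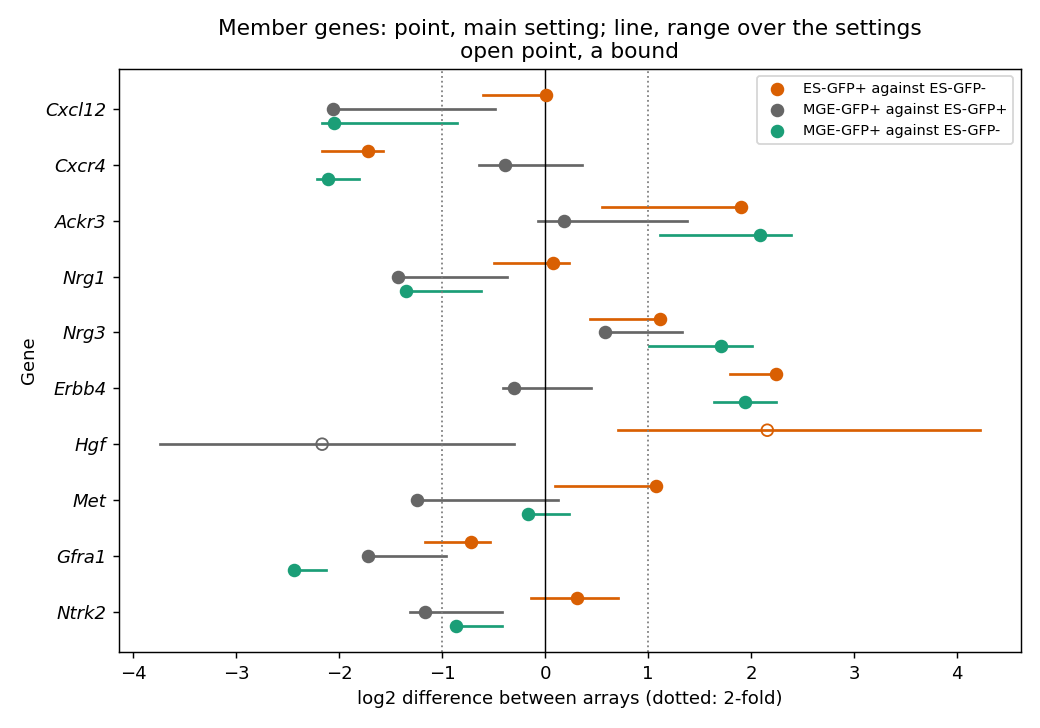
log2 difference of each gene in ES-GFP+ against ES-GFP-, MGE-GFP+ against ES-GFP+ and MGE-GFP+ against ES-GFP- cells; points are the main values, open points are bounds, lines span the main value and its alternatives, and dotted lines mark 2-fold. *Erbb4* and *Cxcr4* lie on opposite sides of 0 in both comparisons with ES-GFP- cells over the whole of their lines, and the lines of *Cxcr4*, *Ackr3*, *Erbb4* and *Met* cross 0 between the GFP+ populations.

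Of the chemokine genes, *Cxcr4*, the signaling receptor, had a scaled intensity of 3411 in ES-GFP+, 11220 in ES-GFP- and 2601 in MGE-GFP+ cells. The GFP-negative fraction stood apart and both GFP+ populations were lower, by 3.29-fold in ES-GFP+ (log2 difference -1.72, -2.16 to -1.57 over all settings) and by 4.31-fold in MGE-GFP+ cells (log2 difference -2.11). The GFP+ populations differed by 1.31-fold, within 2 SDs of the repeat-spot error, and the sign of that difference turned with the 50th percentile as the scale (log2 difference 0.36). In bulk samples such as these, fewer cells that transcribe a gene and less RNA of it per cell cannot be told apart.

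*Ackr3*, the scavenging receptor, ran the other way at low signal. Its scaled intensity was 96.8 in ES-GFP+, 26.0 in ES-GFP- and 110.0 in MGE-GFP+ cells, so that it was 3.73-fold higher in ES-GFP+ and 4.24-fold higher in MGE-GFP+ than in ES-GFP- cells. Every setting that gave a value kept both directions, but the size of the difference between the ES fractions ranged from 0.55 to 1.90 on the log2 scale. Taken as a difference of differences, which no scaling constant of an array can change, *Ackr3* minus *Cxcr4* was 3.62 on the log2 scale for ES-GFP+ against ES-GFP- cells and 4.19 for MGE-GFP+ against ES-GFP- cells, where 2 SDs of repeat-spot error are 0.56 and 0.57. Background correction and quantile normalization can change it, and over the settings it ranged from 2.12 to 3.62 and from 3.23 to 4.36. Repeat-spot error does not cover a shift of the dim end between arrays. Before scaling, the median control probe had an intensity of 69.9 on the ES-GFP+, 11.5 on the ES-GFP- and 7.73 on the MGE-GFP+ array. *Ackr3* before scaling read 101.4, 30.7 and 88.87 on the same arrays. *Ackr3* lay within the control range, and the part of that shift in its differences was not tested.

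The promoters of these receptors are shown because the receptors bind the same ligand and their signals differed in opposite directions. Each is the 250 bases before the RefSeq start of the gene in GRCm38.p6, 5′ to 3′ on the strand of the gene, with matches to TATAAA on either strand in capitals: *Cxcr4* at chr1:128592300-128592549 on the minus strand and *Ackr3* at chr1:90203730-90203979 on the plus strand.
Cxcr4: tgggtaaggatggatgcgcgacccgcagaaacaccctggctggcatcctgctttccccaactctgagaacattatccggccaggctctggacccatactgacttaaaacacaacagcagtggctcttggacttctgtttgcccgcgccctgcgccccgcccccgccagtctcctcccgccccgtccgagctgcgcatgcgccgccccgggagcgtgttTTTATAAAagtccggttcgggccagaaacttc
Ackr3: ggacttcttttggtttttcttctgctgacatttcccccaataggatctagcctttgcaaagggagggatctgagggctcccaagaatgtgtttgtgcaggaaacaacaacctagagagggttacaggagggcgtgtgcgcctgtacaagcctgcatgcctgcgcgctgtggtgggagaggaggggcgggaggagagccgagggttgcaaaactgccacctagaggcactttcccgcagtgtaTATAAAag
A table of RefSeq promoters held 9 of the 10 genes (none for *Nrg1*, 2 starts for *Hgf*), and of these 10 promoters the 2 printed were the ones with TATAAA, which 12.4% of all 32851 promoters hold. In *Cxcr4* the matches on the 2 strands overlap and form 1 run. TAATTA, a core that homeodomain proteins such as Lhx6 and the Dlx proteins can bind, was in 0 of the 10 and in 4.84% of all, and CAGCTG, an E-box, was in the *Gfra1* promoter only and in 13.0% of all. These are letter matches in a short window and are not measured binding sites.

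*Cxcl12*, the ligand, was near the limit of the array. Its probe on NM_001012477 had a scaled intensity of 158 in ES-GFP+, 157 in ES-GFP- and 37.8 in MGE-GFP+ cells. The ES fractions were level on this probe at the main setting (1.01-fold), with log2 differences of -0.55 to 0.05 over the settings. MGE-GFP+ cells were 4.18-fold and 4.15-fold lower, differences whose log2 values ranged from -2.06 to -0.48 against ES-GFP+ and from -2.05 to -0.86 against ES-GFP- cells over the settings. The other *Cxcl12* probe, on NM_021704, was not well above background on any array and has no fold. Mesenchyme and meninges, where *Cxcl12* is made in the embryo, had 2 of 8 listed markers above the control range in ES-GFP+, 6 in ES-GFP- and 0 in MGE-GFP+ cells, with summed scaled intensities of 2840, 4269 and 242. Between the ES fractions its members differed in both directions or were level, with *Col3a1* at 1175 and 1038 and *Dcn* at 70.8 and 563, and their part in the *Cxcl12* difference was not tested.

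Among the neuregulin genes, *Erbb4* had a scaled intensity of 998 in ES-GFP+, 211 in ES-GFP- and 810 in MGE-GFP+ cells. Both GFP+ populations were thus higher than the GFP-negative fraction, by 4.72-fold in ES-GFP+ (log2 difference 2.24, 1.80 to 2.26 over all settings) and by 3.84-fold in MGE-GFP+ cells (log2 difference 1.94, 1.64 to 2.25). In ES-GFP- cells the signal was only slightly above the control range. The GFP+ populations differed by 1.23-fold, within 2 SDs of the repeat-spot error, with a sign that turned under another scale (log2 difference -0.41 to 0.45). *Erbb4* minus *Cxcr4* was 3.96 on the log2 scale for ES-GFP+ against ES-GFP- and 4.05 for MGE-GFP+ against ES-GFP- cells, and it was 0.09, inside 2 SDs of error, between the GFP+ populations.

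The neuregulin ligands differed from each other. *Nrg3* had a scaled intensity of 236 in ES-GFP+, 109 in ES-GFP- and 354 in MGE-GFP+ cells, and was 3.26-fold higher in MGE-GFP+ than in ES-GFP- cells, at least 2-fold under every setting (log2 difference 1.01 to 2.01). Its 2.17-fold difference between the ES fractions fell to a log2 value of 0.44 in the lowest setting. *Nrg1* had 156, 148 and 57.8 on the same arrays, with every value inside the control range. It was level between the ES fractions at the main setting (1.06-fold, log2 difference -0.50 to 0.23 over the settings). In MGE-GFP+ cells it was 2.70-fold lower than in ES-GFP+ and 2.56-fold lower than in ES-GFP- cells. Over the settings these last differences shrank to log2 values of -0.37 and -0.62, from -1.43 and -1.35.

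*Hgf*, the ligand of Met, was well above background on the ES-GFP+ array alone, at a scaled intensity of 67.0, against 3.60 in ES-GFP- and 5.02 in MGE-GFP+ cells. It exceeded the ES-GFP- signal at least 4.46-fold and the MGE-GFP+ signal at least 4.48-fold, where the dimmer side was raised to the lowest signal called on its array. Over the settings the log2 difference between the ES fractions ranged from 0.71 to 4.22. Before scaling, the median control probe had an intensity of 69.9 on the ES-GFP+ array, 11.5 on the ES-GFP- and 7.73 on the MGE-GFP+ array. *Hgf* before scaling read 70.17, 4.26 and 4.055 on these arrays. The control probes were thus brighter on the same array as *Hgf*, and their part in its difference was not tested.

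*Met*, the HGF receptor, had 10 spots on each array, with a scaled intensity of 105.0 in ES-GFP+, 49.95 in ES-GFP- and 44.4 in MGE-GFP+ cells and a log2 SD over its spots of 0.07, 0.18 and 0.16. ES-GFP+ cells were highest, by 2.10-fold over ES-GFP- and by 2.36-fold over MGE-GFP+ cells, and MGE-GFP+ and ES-GFP- cells differed by 1.13-fold. That is less than 2 SDs of single-spot error, which is wider than the error of a mean over 10 spots. Between the ES fractions the log2 difference fell from 1.07 to 0.10 after quantile normalization and was under 2-fold in 5 of the alternatives. The difference between the GFP+ populations turned its sign after quantile normalization (log2 difference 0.13) and in the deposited values (0.10). All of these signals were inside the control range.

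*Gfra1*, the GDNF-binding coreceptor, had a scaled intensity of 1090 in ES-GFP+, 1794 in ES-GFP- and 332 in MGE-GFP+ cells. MGE-GFP+ cells were lowest, 3.28-fold below ES-GFP+ (log2 difference -1.71, -1.71 to -0.97 over the settings) and 5.40-fold below ES-GFP- cells (-2.43, -2.43 to -2.12). The ES fractions differed by 1.65-fold, past 2 SDs of error but under 2-fold. Its signaling partner *Ret*, a receptor tyrosine kinase, was within the control range everywhere (42.1, 65.5 and 10.49, the last not well above background), and its ligand *Gdnf* was called in MGE-GFP+ cells only, at 21.6. *Ncam1*, the alternative coreceptor, was high on all arrays, with mean levels over its probes of 13230, 8665 and 15640. The mean of the log2 differences of its probes was at most 0.31 in size. These 2 summaries do not match, since bright probes weigh more in the mean level.

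The 3 *Ntrk2* probes disagreed. *Ntrk2* encodes a full-length TrkB with a tyrosine kinase domain, on whose transcript (NM_001025074) 2 probes were designed, and a truncated TrkB without it (NM_008745), on which 1 was. The first full-length probe, A_51_P393454, with 10 spots on each array, had a scaled intensity of 2036 in ES-GFP+, 502 in ES-GFP- and 565 in MGE-GFP+ cells. The ES-GFP+ cells stood apart on it, 4.06-fold above ES-GFP- cells (log2 difference 2.02, 1.58 to 2.12 over the settings) and 3.60-fold above MGE-GFP+ cells, with a log2 SD over its spots of at most 0.11. The second probe on the same transcript, A_55_P2006792, read 4987, 3915 and 2932, so that the ES fractions differed by 1.27-fold, within 2 SDs of error. The probe on the truncated form, A_65_P04961, read 157, 427 and 84.5, above the control range in ES-GFP- cells only. Between the ES fractions it ran opposite to the first probe, 2.72-fold lower in ES-GFP+ cells (log2 difference -1.44, -1.97 to -0.25 over the settings). In MGE-GFP+ cells it was 5.05-fold lower than in ES-GFP- cells (-2.34, -2.34 to -1.18). There the first full-length probe differed by 1.13-fold, within 2 SDs of single-spot error, although its mean over 10 spots has a smaller error. The second full-length probe was also lower, by 1.33-fold.

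Set against each other within the arrays, the difference of the first full-length probe minus that of the truncated probe was 3.46 on the log2 scale for ES-GFP+ against ES-GFP- cells (2.27 to 4.09 over 8 settings, 2 SDs of error 0.56) and 2.51 for MGE-GFP+ against ES-GFP- cells (1.35 to 2.51). The second full-length probe minus the truncated one gave 1.79 (0.60 to 2.44) and 1.92 (0.77 to 1.92), the lowest of which is close to 2 SDs of error. The full-length probes also differed from each other by 1.67 between the ES fractions, so the mean over the 3 probes (0.31, -1.17 and -0.86 in the 3 comparisons) stands for none of them. The accession says on which transcript a probe was designed and not which other transcripts it also binds, and probe sequences were not used here.

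**Figure D3:**
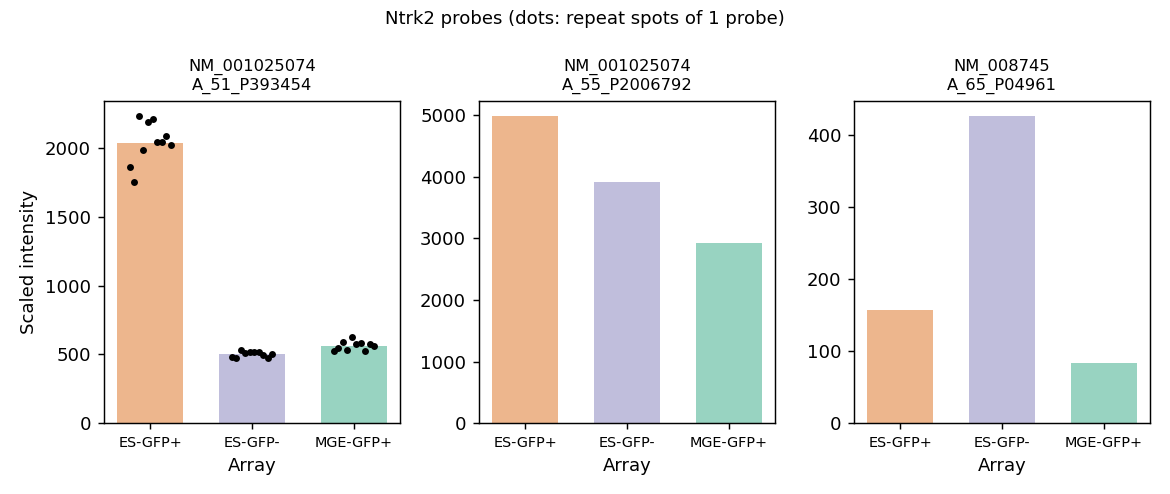
Scaled intensity of the 3 *Ntrk2* probes on the 3 arrays, each panel with its own axis from 0; bars are the means over spots on the log scale and dots are the 10 repeat spots of the probe that has them. The first probe is highest in ES-GFP+ cells (2036), the second is close to level over the ES fractions (4987 and 3915), and the probe on the truncated form is highest in ES-GFP- cells (427).

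*Cxcr4*, *Gfra1* and the truncated *Ntrk2* probe were highest in ES-GFP- cells, as were the summed signals of the progenitor and glial lists. Radial glia had 5 of 8 markers above the control range in ES-GFP+, 8 in ES-GFP- and 5 in MGE-GFP+ cells, with summed scaled intensities of 8646, 43500 and 10510, and the oligodendrocyte lineage had 1, 3 and 1 of 5 (903, 5571 and 940). Pallial progenitors and Cajal-Retzius cells, of which the latter use *Cxcr4*, had 1, 6 and 3 of 7 markers above the range (1098, 2460 and 2258). Of these markers, *Eomes*, *Neurog2*, *Neurod1* and *Lhx5* were highest in ES-GFP- cells. *Tbr1* (100, 171 and 1263) and *Reln* (454, 591 and 699) were highest in MGE-GFP+ cells, and *Trp73* (147, 92.7 and 139) was lowest in ES-GFP- cells. Pluripotent cells had 1, 4 and 1 of 4 markers above the range. Within that last list the genes did not move together: *Dppa5a* (177, 4002 and 48.6) and *Pou5f1* (183, 518 and 73.3) were highest in ES-GFP- cells and *Zfp42* (274, 199 and 34.2) in ES-GFP+ cells. *Nanog* read 220300, 212400 and 278700, within 2 SDs of error in every comparison. Whether so bright a signal on all arrays is *Nanog* RNA was not tested. The MGE-GFP+ array alone had high hemoglobin signal (*Hba-a1* at 7434, against 617 and 455), and microglial markers were above the range for 1, 1 and 2 of 6 genes. Endothelial markers were above the range for 2, 1 and 1 of 7 genes and well above background for 6, 5 and 4. *Kdr* was above the range on all arrays (416, 481 and 673) and *Esam* in ES-GFP+ cells (362), while *Cdh5* was not well above background on any array. The part of these cell types in the values of the 10 genes was not tested.

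The patterns of *Cxcr4* and *Erbb4* over the 3 arrays were compared with those of 7624 genes above the control range on all arrays, by the root mean square (RMS) difference of levels centered on each gene's own mean. The 5 nearest to *Cxcr4* were *Fgfr3* (RMS 0.02 on the log2 scale), *Prag1* (0.08), *Grb10* (0.10), *Actn1* (0.11) and *Nxn* (0.11). *Fgfr3*, a fibroblast growth factor receptor, read 1654, 5402 and 1349. The 5 nearest to *Erbb4* were *Gad1* (0.05), *Brinp2* (0.07), *Olfr1410* (0.11), *Gpm6a* (0.13) and *Dact1* (0.14). *Gad1*, which makes GABA, read 15050 in ES-GFP+, 3443 in ES-GFP- and 12850 in MGE-GFP+ cells. With 3 arrays a pattern has few ways to differ, and these likenesses are descriptions.

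The other genes of the 5 pathways were taken as a list of 81. Of the 73 with a value between the ES fractions, 20 (27.4%) were at least 2-fold higher in ES-GFP+ cells and 9 (12.3%) lower. In MGE-GFP+ against ES-GFP+ cells these were 3 (4.05%) and 33 (44.6%) of 74, and in MGE-GFP+ against ES-GFP- cells 4 (5.71%) and 20 (28.6%) of 70, with medians of 0.11, -0.61 and -0.28 against 0.27, -0.36 and -0.06 over all genes. The split into higher and lower depends on the scaling: at the 50th percentile it was 13 and 14, 18 and 17, and 10 and 15, and after quantile normalization 9 and 22, 13 and 11, and 6 and 16. Over all genes the shares at the 50th percentile were 14.9% and 13.7%, 26.0% and 17.1%, and 17.9% and 12.6%. After quantile normalization they were 11.5% and 15.0%, 14.6% and 13.7%, and 10.4% and 12.8%. Among the 39 pathway genes above the control range on at least 1 of the arrays compared, the counts were 5 higher and 8 lower (12.8% and 20.5%), 2 and 9 (5.13% and 23.1%), and again 2 and 9. Over all genes above the range the shares were 6.88% and 8.78%, 8.36% and 10.5%, and 11.6% and 15.5%.

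The chemokine list had most of the higher values between the ES fractions, 11 of 23 genes (47.8%, where all genes gave 24.0%). Of these 11, 9 were within the control range on both arrays. The count was 8 of 23 at the 50th percentile and 6 of 22 after quantile normalization, where all genes gave 14.9% and 11.5%. *Cxcr2*, a receptor for ELR chemokines and 1 of the 2 above the range, read 488 in ES-GFP+ and 86.7 in ES-GFP- cells. The neuregulin and ErbB list had 5 higher and 1 lower of 18 (27.8% and 5.56%, where all genes gave 24.0% and 6.4%). These became 2 and 2 of 18 at the 50th percentile, where all genes gave 14.9% and 13.7%. After quantile normalization they were 0 and 5 of 17, where all genes gave 11.5% and 15.0%. The *Erbb4* partners *Erbb2* (113, 115 and 27.2) and *Erbb3* (73.4, 17.5 and 7.16) were within the control range on all arrays, and *Nrg2* was higher by a log2 value of at least 1.72 in ES-GFP+ and at least 1.23 in MGE-GFP+ than in ES-GFP- cells. *Lrig1*, a negative regulator of ErbB receptors, was lower in MGE-GFP+ than in ES-GFP- cells (-2.42). *Erbin*, which binds ErbB2, and *Bace1*, the protease that cleaves neuregulin, were higher in MGE-GFP+ than in ES-GFP+ cells (log2 differences 1.16 and 1.12), with *Bace1* at 2337, 2701 and 5092.

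In the HGF list 7 of 9 genes were at least 2-fold lower in MGE-GFP+ than in ES-GFP+ cells, where all genes gave 32.2%, and 4 of the 7 were above the control range. At the 50th percentile 2 were lower and 1 higher, where all genes gave 17.1% and 26.0%. After quantile normalization 2 were lower, where all genes gave 13.7%. *Plat*, the tissue plasminogen activator, was highest in ES-GFP- cells (881, 3102 and 426), with log2 differences of -1.82 in ES-GFP+ and -2.86 in MGE-GFP+ against them. *Hgfac*, a protease that activates HGF, was 417 in ES-GFP+, 187 in ES-GFP- and 123 in MGE-GFP+ cells. *Mst1r*, the relative of *Met*, was within the control range on all arrays (56.6, 53.4 and 27.5).

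In the GDNF list *Gfra2*, the neurturin coreceptor, was also lowest in MGE-GFP+ cells, at 561, 1306 and 235, with a log2 difference of -2.47 in MGE-GFP+ against ES-GFP- cells. In the neurotrophin list the TrkB ligands *Bdnf* (56.0, 58.8 and 19.3) and *Ntf5* (330.2, 39.8 and 9.88) and the TrkC ligand *Ntf3* (30.3, 55.1 and 17.1) were all within the control range. *Ngfr*, the low-affinity neurotrophin receptor, was highest in ES-GFP- cells at 1875, against 648 and 657. *Sorcs2*, a sortilin-family receptor, was likewise lower in ES-GFP+ than in ES-GFP- cells (-1.56), while *Sorcs3* was higher in MGE-GFP+ than in ES-GFP- cells (1.05).

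**Figure D4:**
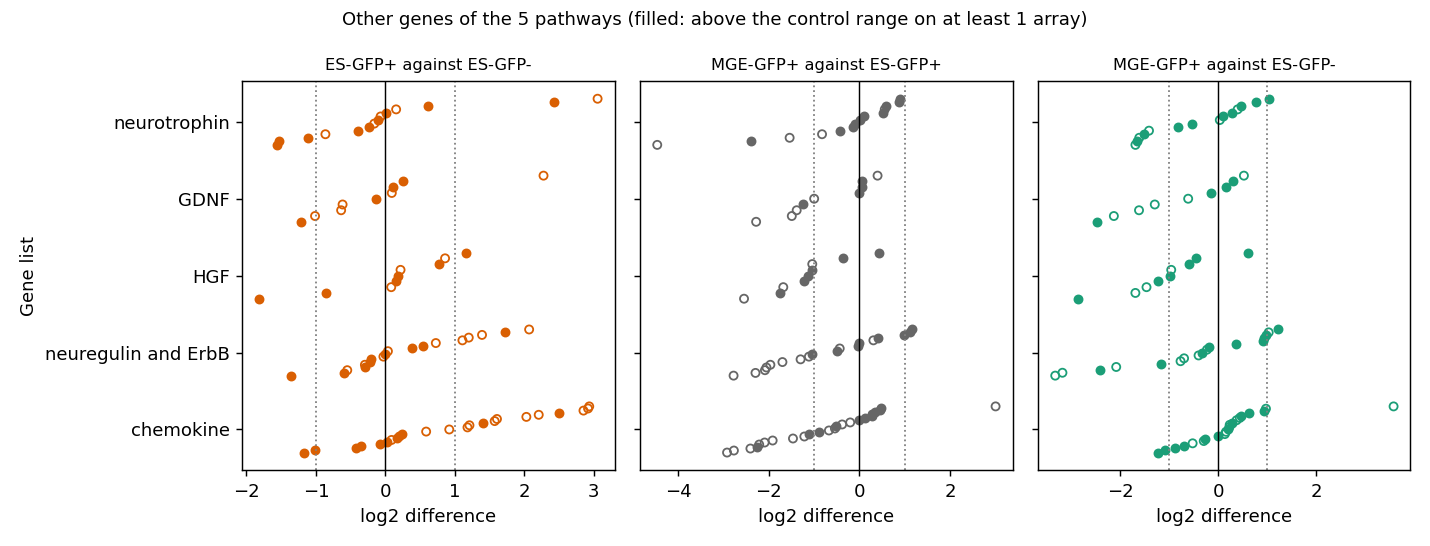
log2 differences of the other genes of the 5 pathways in the 3 comparisons; each point is 1 gene (bounds included), filled where it was above the control range on at least 1 of the 2 arrays, and dotted lines mark 2-fold. Between the GFP+ populations most points left of the dotted line are open, since 9 of the 33 lower genes were above the control range.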

How the data were processed

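The 10 genes and all lists were chosen with earlier results of these data known. The deposited scanner files of 3 one-color arrays on 1 slide hold, per the file headers, spot intensity from Agilent Feature Extraction 10.7.3.1, background-subtracted and not scaled between arrays. The authors also deposited log2 values, with scale and direction not stated, whose columns had medians of 7.69, 7.68 and 7.69 and lay within 0.21 of quantile-normalized log2 median intensity. The labels name a low-input amplification kit and a 4x44K array, and the paper's methods another kit and software version, while the files hold 62976 spots an array. How these steps bear on dim probes was not tested.

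From the intensity, log2 minus the array's 75th percentile over mouse probes was taken. Flagged spots were left out (98 to 137 an array; none were saturated), repeat spots were averaged, and a probe was well above background where at least 0.5 of its spots were. A dimmer probe was raised to the lowest signal called on that array, which makes its folds bounds. No value was given where neither array called it. The difference of a gene is the mean of the log2 differences of its probes. A level printed for a gene with several probes is the mean of their scaled intensities, so the 2 need not match. RefSeq accessions named 26582 of 55681 probes through a GRCm38.p6 table. The headers give another build, so no probe positions are printed. A call is 2-fold or more. The files hold no spot mean, so normexp (offset 50) used spot medians.

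All 10 genes and their probes were named. Of the other pathway genes, direct partners were named, and in each comparison the 3 with the largest differences in each direction among those at least 2-fold different and above the control range; 1 gene this rule names is not reported here. Alternatives were 8: 50th percentile, quantile, normexp, no background subtraction, deposited values, no floor, a floor at the control 95th percentile, and the brightest probe. Python 3.11.15, numpy 2.4.6, pandas 2.3.3, R 4.3.3 and limma 3.58.1 were used, and the code was tested on simulated data. The number of arrays limits the precision.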

Additional observations from a re-analysis of the deposited data

How the results depend on the processing

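Of 296 values of single genes and probes under the 8 alternatives, 273 kept their sign. Of the 181 that belong to values called at least 2-fold, 179 kept it and 134 stayed at least 2-fold the same way. The 2 that turned are *Met* in MGE-GFP+ against ES-GFP+ cells, at 0.13 under quantile normalization and at 0.10 with the authors' log2 table. Part of the 296 values could not move. For a gene with 1 probe the brightest probe is the main value. Leaving out the floor changes nothing for a probe called on both arrays. *Cxcl12* and *Ntrk2* also enter both as genes and as probes. The counts of values that kept their sign or size are therefore no measure of robustness. In ES-GFP+ against ES-GFP- cells the 6 of the 10 genes at least 2-fold different became 2 with quantile normalization, 2 in the deposited values and 2 with the floor at the control percentile, which leaves 4 genes with a value. In MGE-GFP+ against ES-GFP+ cells 6 became 3 with the 50th percentile, 3 with quantile normalization, 2 with normexp, 1 in the deposited values and 2 with that floor, which leaves 4 genes with a value. In MGE-GFP+ against ES-GFP- cells 7 became 4 with that floor, which leaves 5 genes with a value. Pathway genes went from 29 to 14 (normexp), 19 (no background subtraction), 13 (deposited values) and 11 (that floor) between the ES fractions, from 36 to 11, 19, 8 and 10 between the GFP+ populations, and from 24 to 9, 11, 8 and 7 in MGE-GFP+ against ES-GFP- cells. With that floor 38, 34 and 38 pathway genes had a value in the 3 comparisons, in place of 73, 74 and 70. The causes were not tested. The median of all genes was 0.27, -0.36 and -0.06 in the 3 comparisons at the 75th percentile, -0.18, 0.40 and 0.25 at the 50th, and 0.00, 0.05 and 0.05 after quantile normalization, and the share of 2-fold genes that were higher was 78.9%, 14.6% and 36.5%, against 52.1%, 60.3% and 58.7% at the 50th percentile and 43.4%, 51.7% and 44.9% after quantile normalization. No paired analysis was possible because each population had 1 array.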
